A study of Rattus norvegicus with 5 samples.

Results

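The potassium channel genes of the rat cornea were taken as all gene symbols of the count table that begin with Kcn followed by lower-case letters, which gave 85 of 20339 genes. They were measured by RNA sequencing in 5 cornea libraries from male Sprague-Dawley rats 6 months old. Wild-type rats gave 3 libraries. The other 2 came from the transgenic line P1 hMR, in which the mineralocorticoid receptor gene of man, NR3C2, is overexpressed. No drug or other treatment is named for either genotype, and the cells that express the transgene and the promoter that drives it are not given in the sources used here. The labels do not say outright that each library is a separate rat, and p-values measure the spread between these libraries.

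Potassium channels let potassium leave or enter a cell along its gradient and so set the resting membrane potential. Voltage-gated channels open on depolarization, inward rectifiers hold the potential near rest, tandem-pore domain channels carry background leak current, and calcium- or sodium-activated channels open when those ions rise inside the cell. Accessory subunits do not form a pore but change the gating or trafficking of channels that do. In the cornea, potassium channels work beside the sodium pump in the epithelium and endothelium, and the mineralocorticoid receptor is best known for raising sodium and potassium transport in epithelia.

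Human NR3C2 was counted 0, 0 and 0 times in wild-type libraries 1 to 3 and 1094 and 1146 times in transgenic libraries 1 and 2. The rat's own Nr3c2 had 3.72 ± 0.722 CPM (SD, n = 3) in wild-type and 5.24 ± 0.437 CPM (SD, n = 2) in transgenic libraries, a log2 fold change of 0.49 ± 0.25 (edgeR adjusted p = 0.820). Totals of the gene table ran from 20874010 to 30449675 counts, so that 1 CPM (a count scaled to the library's total) stood for 20.9 to 30.4 counts, and a count of 0 allows up to 0.144 CPM (3 counts) in the shallowest library, for counting error only. Krt12, the keratin of the corneal epithelium, took 3.33% to 4.49% of counts in every library. Of 11 lists of cell type markers, that of pigment cells (7 of 8 genes measured, none at 0 in all libraries) summed to 9.54 to 45.8 CPM in wild-type libraries and to 80.4 to 151 CPM in transgenic ones. Retina and pigment epithelium markers (7 of 7 measured) summed to 2.74 to 18.5 and 19.8 to 24.0 CPM, smooth muscle and pericyte markers (7 of 7) to 148 to 172 and 185 to 186 CPM, and lens markers (7 of 7) to 14.5 to 72.4 and 7.42 to 9.48 CPM. Wild-type library 2 held the least of both the pigment and the retina markers. Epithelial markers summed to 106866 to 120971 and 99091 to 124662 CPM, keratocyte markers to 1525 to 1739 and 1862 to 1904 CPM, and corneal endothelial markers to 1441 to 1541 and 1560 to 1589 CPM. Blood endothelial markers summed to 44.4 to 52.1 and 57.3 to 67.6 CPM, leukocyte markers to 71.1 to 84.9 and 66.6 to 68.6 CPM, Schwann cell markers to 98.1 to 135 and 120.3 to 125 CPM, and skeletal muscle markers to 9.52 to 23.0 and 14.3 to 17.0 CPM. Of the 11 lists, the sums of epithelium, Schwann cells and skeletal muscle overlapped between genotypes and those of the other 8 did not. EdgeR called no gene of these lists, and in bulk RNA fewer cells of a type and less RNA per cell cannot be told apart.

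Most potassium channel genes did not reach the level set for expression. By the rule of at least 1 CPM of the column total in 3 or more libraries, 23 of 85 were expressed (27.1%), against 59.4% of all genes in the table. Another 56 were counted below that threshold, with 1 to 136 counts over the 5 libraries, and 6 (Kcna10, Kcnh5, Kcnj1, Kcnk18, Kcnk9 and Kcnu1) were at 0 in all 5. The expressed genes were spread over all classes: 7 of 27 voltage-gated pore subunits, 1 of 9 modifier subunits of that class, 3 of 12 inward rectifiers, 5 of 13 tandem-pore domain channels, 2 of 8 calcium- or sodium-activated channels and 4 of 15 accessory subunits. Kcnrg, a soluble regulator of voltage-gated channel assembly, was the remaining one. Classes are counted over the symbols in the gene table, which need not hold every gene of a family. All expressed genes of the tandem-pore domain class (5), the inward rectifiers (3) and the modifier subunits (1) were over 1 CPM in every library. The ion-activated class had none that reached it in all 5.

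**Figure D1:**
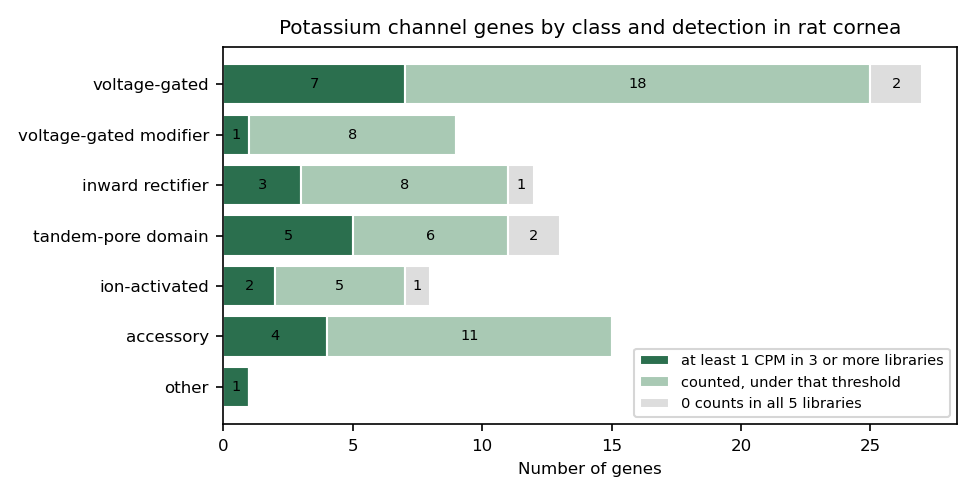
Number of potassium channel genes in each class (bars, in genes) that reached 1 CPM in 3 or more libraries, were counted below it, or had 0 counts. Of 85 genes 23 were expressed, and voltage-gated pore subunits were the class with the most genes below the threshold (18).

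The threshold cut through a continuous range. Just inside it, Kcnab1 had a third-highest value of 1.15 CPM of the column total, with Kcne2 next above it, and just outside, Kcne3 and Kcng1 had 0.958 and 0.887 CPM. At the threshold in all 5 libraries were 13 genes. Kcnma1, Kcnrg and Kcnt1 passed through both transgenic libraries and 1 wild-type library, so their place among the expressed genes rests on the transgenic corneas, and a genotype difference in them is partly built into the choice. Without transgenic library 2 the count of expressed genes was 17 in place of 23. Since 3 libraries were still required, leaving out any library can lower this count but not raise it. Transgenic library 2 was also the deepest of the 5.

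No potassium channel gene passed the test between genotypes. With edgeR's quasi-likelihood test, 46 of the 85 genes had enough counts to be tested and 0 were called at an adjusted p of 0.05, where 0.00752% of all 13304 genes tested were called (NR3C2 alone). DESeq2 and limma voom also called 0 of the 46. At an unadjusted p under 0.05 edgeR gave 3 genes (6.52%), beside 6.32% of all genes tested, DESeq2 2 and limma voom 6. The edgeR number was 1 without transgenic library 2 and 6 without wild-type library 1.

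Fold changes of the tested genes leaned upward by a small amount. Of the 46, 29 had a positive and 17 a negative log2 fold change of transgenic against wild-type (63.0% positive, against 48.2% of all genes tested). The median was 0.13, against -0.01 over all genes. The 23 expressed genes split into 13 higher and 10 lower, with a median of 0.06, and the 23 tested genes below the threshold into 16 and 7. The filter before the test keeps a gene with enough counts in 2 libraries, the size of the transgenic group, so a gene high in the transgenic corneas alone passes it. These counts over tested genes are therefore a description. The 2 transgenic libraries were the highest of the 5 in 10 of 46 (21.7%, beside 12% of all genes tested) and the lowest in 2 (4.35%, beside 10.7%). Among the 23 expressed genes the numbers were 3 (13.0%, beside 11.4% of all expressed genes) and 2 (8.70%, beside 11.1%), near the background.

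**Figure D2:**
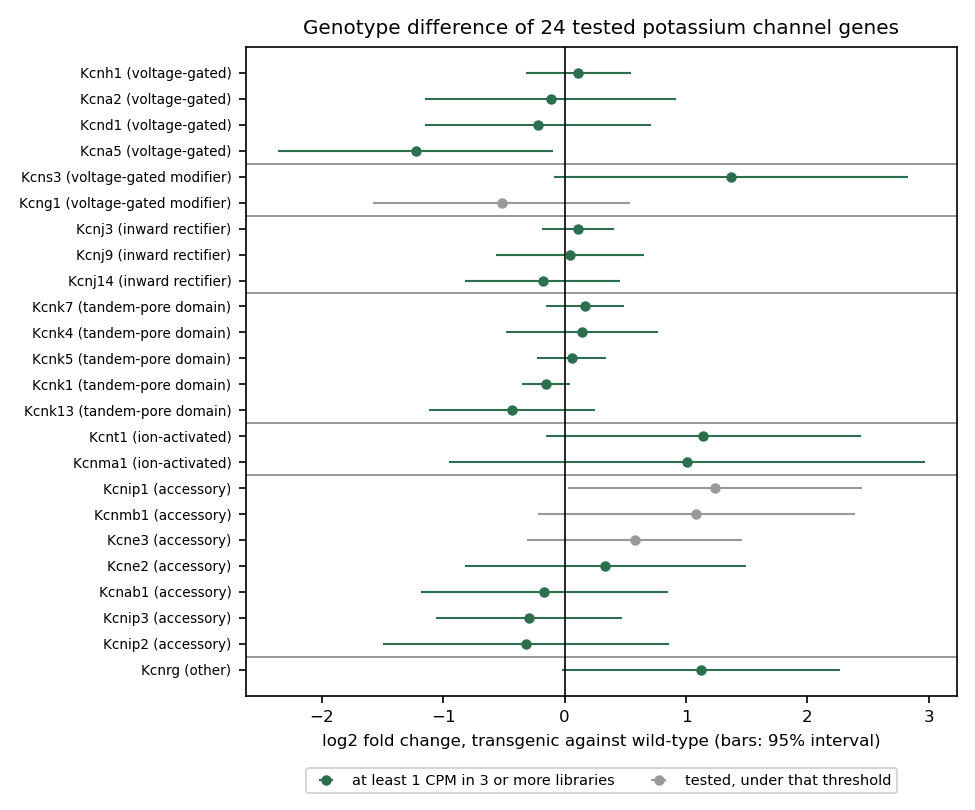
Log2 fold change of transgenic against wild-type corneas (x axis) for the 24 tested genes described here, ordered by class, with 95% intervals. The intervals of Kcna5 and Kcnip1 lie to 1 side of 0 and the other 22 cross it. Kcnip1 passed the filter before the test only with the help of its transgenic libraries.

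Precision differed widely between members. The 6 genes with a mean of at least 10 CPM had standard errors of 0.09 to 0.42 on the log2 scale, and the median was 0.42 over the 23 expressed genes and 0.51 over the 46 tested, against 0.15 over all genes tested. In simulated counts with the spread of these libraries, the same test was run over 13304 genes. It recovered 9 of 50 genes changed 1.5-fold, 36 of 50 changed 2-fold and 47 of 50 changed 4-fold. It also called 11 of 13104 unchanged genes. The changed genes were drawn from all genes tested, whose median mean was 21.5 CPM, against 1.04 CPM for the tested members. Recovery was therefore not measured for genes as low as most members. CPM is not scaled for transcript length, so CPM values below are compared between libraries, never between genes.

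Tandem-pore domain channels had a summed CPM of 133, 143 and 141 in wild-type libraries 1 to 3 and 129 and 140.0 in transgenic libraries 1 and 2. Kcnk1, a weakly conducting background channel, had 77.3, 81.2 and 81.2 CPM in wild-type libraries against 71.4 and 72.2 CPM in transgenic ones. Both transgenic values were below all wild-type values, by a small step. The log2 fold change was -0.15 ± 0.09 (edgeR adjusted p = 0.835), with a 95% interval of 0.785 to 1.03 in fold. Kcnk5, a leak channel opened by alkaline pH, had 21.9, 21.2 and 18.7 CPM and then 22.7 and 20.3 CPM, with a fold interval of 0.854 to 1.27. The ranges of the genotypes overlapped.

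Kcnk7, a member of the same family with no known current of its own, had 14.5, 13.7 and 13.9 CPM in wild-type libraries against 14.2 and 17.3 CPM in transgenic ones. Kcnk4, a channel opened by membrane stretch and polyunsaturated fatty acids, varied more within each genotype, at 14.8, 21.1 and 23.4 CPM and at 16.9 and 26.6 CPM. Its 2 transgenic libraries spanned nearly the whole range of values. Kcnk13, a leak channel inhibited by halothane, had 3.57, 5.48 and 3.05 CPM in wild-type libraries against 3.20 and 2.77 CPM in transgenic ones (log2 fold change -0.43 ± 0.31, edgeR adjusted p = 0.860). Wild-type library 2 alone stood higher.

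Among inward rectifiers, Kcnj3, a subunit of channels opened by G protein beta-gamma after receptor activation, had 67.5, 73.3 and 92.0 CPM in wild-type libraries against 86.4 and 81.1 CPM in transgenic ones. The transgenic values lay inside the wild-type range, and the fold interval was 0.878 to 1.33. Kcnj9, another subunit of G protein-gated channels, had 2.96, 2.45 and 3.32 CPM and 3.01 and 2.99 CPM, again inside the range. Its gene overlaps Igsf8 in the RefSeq annotation (assembly GRCr8), and since strandedness is not stated, reads of the pair could be mixed. The other partners of Kcnj3 were scarcely counted: Kcnj5 had 9, 0, 5, 4 and 8 counts in wild-type libraries 1 to 3 and transgenic libraries 1 and 2, and Kcnj6 had 0 in all but transgenic library 2, with 2. Kcnj14, a constitutive inward rectifier, had 3.61, 5.33 and 3.19 CPM and 3.32 and 3.79 CPM, with wild-type library 2 the highest.

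Among voltage-gated pore subunits, Kcnh1, of the ether-a-go-go family, had 6.93, 5.87 and 7.92 CPM and 7.25 and 7.70 CPM, with the transgenic values inside the wild-type range.

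Kcna5, a delayed rectifier of heart and vascular muscle, had 2.67, 1.52 and 1.32 CPM in wild-type libraries against 1.12 and 0.478 CPM in transgenic ones, from 74, 31, 29, 29 and 15 counts. Both transgenic values were below every wild-type value (log2 fold change -1.23 ± 0.51, unadjusted p = 0.0367 and adjusted p = 0.768 by edgeR). Wild-type library 1 stood highest, and wild-type library 3 and transgenic library 1 had 29 counts each. Over 12 alternatives to the fit, which include leaving out 1 library, the log2 fold change of Kcna5 ran from -1.94 to -0.72. Kcna2, of the same subfamily, had 4.37, 1.86 and 1.50 CPM and 2.35 and 2.45 CPM. Wild-type library 1 stood apart there, and without it the log2 fold change of Kcna2 turned from -0.12 to 0.52. Kcnd1, a subunit of A-type channels that inactivate fast, had 1.44, 0.881 and 1.46 CPM and 0.964 and 1.21 CPM, with the transgenic values inside the wild-type range.

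Kcns3 was the only expressed modifier subunit of the 9 in the gene table. It had 8.45, 4.65 and 2.05 CPM in wild-type libraries against 12.1 and 14.2 CPM in transgenic ones. It forms no channel alone and alters other voltage-gated subunits when it joins them. The means were 5.05 ± 3.22 CPM (SD, n = 3) and 13.2 ± 1.50 CPM (SD, n = 2). The genotypes did not overlap, but wild-type values spread over a wide range, and the log2 fold change of 1.37 ± 0.56 did not pass (edgeR adjusted p = 0.804, fold interval 0.940 to 7.08).

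**Figure D3:**
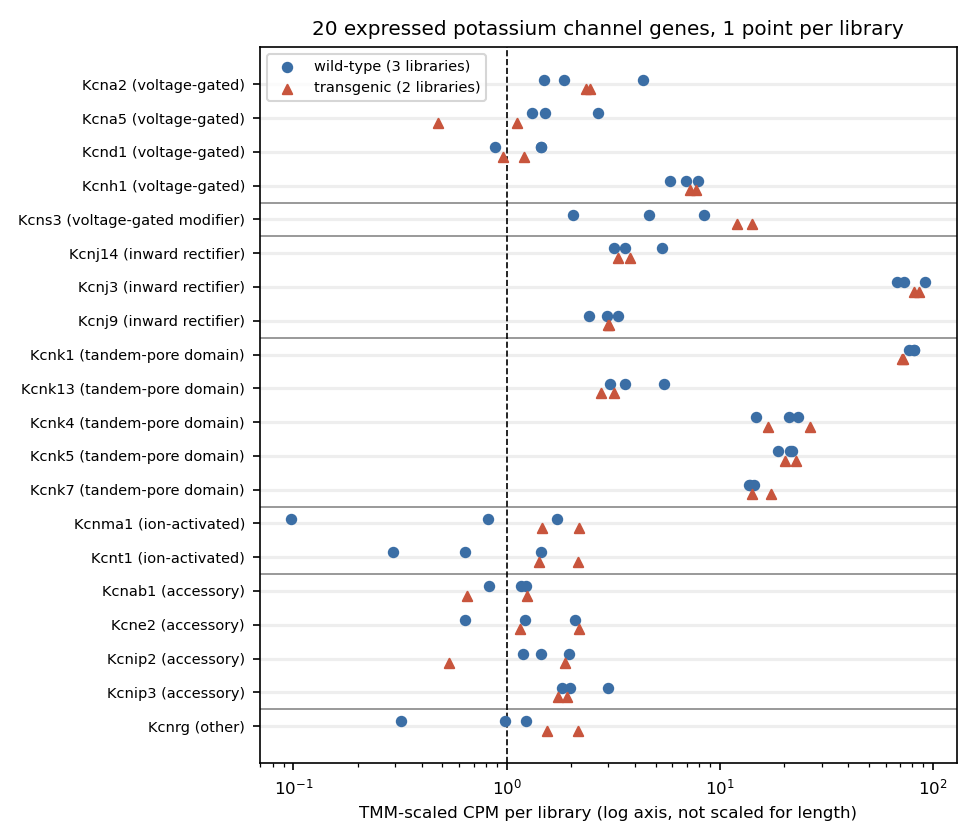
TMM-scaled CPM (log x axis) of 20 expressed genes, with 1 point per library (circles wild-type, triangles transgenic) and a dashed line at 1 CPM. Kcns3 and Kcnrg have both triangles right of all circles, Kcna5 and Kcnk1 left of them, and the other 16 overlap.

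Ion-activated channels were low in wild-type library 2. Kcnma1, the large-conductance channel opened by calcium and voltage in smooth muscle and secretory cells, was counted 48, 2 and 18 times in wild-type and 38 and 69 times in transgenic libraries, or 1.73, 0.0979 and 0.820 CPM and 1.47 and 2.20 CPM. Kcnt1, a channel opened by sodium, had 1.44, 0.294 and 0.637 CPM and 1.43 and 2.16 CPM. In both genes wild-type library 1 was close to transgenic library 1, so the genotypes overlapped. The log2 fold changes were 1.01 ± 0.81 and 1.14 ± 0.57 (edgeR adjusted p = 0.874 and 0.824). The same wild-type library 2 was lowest in the summed pigment-cell markers (45.8, 9.54 and 32.2 CPM in wild-type libraries 1 to 3, 80.4 and 151 CPM in transgenic ones) and the retina markers (18.5, 2.74 and 9.06 CPM, then 19.8 and 24.0 CPM). The part of these markers in the channel values was not tested.

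Partners of Kcnma1 were measured as well. Lrrc26, a leucine-rich subunit that lets the channel open without raised calcium, had 2.09, 3.72 and 5.19 CPM in wild-type libraries against 4.40 and 8.05 CPM in transgenic ones (log2 fold change 0.78 ± 0.41, edgeR adjusted p = 0.835). Transgenic library 1 lay inside the wild-type range. Kcnmb1, the beta subunit of smooth muscle, was under the expression threshold, with 5, 6 and 6 counts in wild-type and 15 and 15 in transgenic libraries. Its genotypes did not overlap (log2 fold change 1.09 ± 0.58, edgeR adjusted p = 0.834). Every wild-type count was under the filter's minimum of 10, so Kcnmb1 was tested through its transgenic libraries alone. A genotype difference in it is therefore partly built into the choice. The summed smooth muscle and pericyte markers were 172, 148 and 149 CPM in wild-type libraries and 185 and 186 CPM in transgenic ones. Their part in the result was not tested.

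Kcnip1, a calcium-binding subunit of A-type channels, was also under the expression threshold and had 17, 4 and 8 counts in wild-type and 23 and 32 in transgenic libraries. That is 0.614, 0.196 and 0.364 CPM and 0.887 and 1.02 CPM (log2 fold change 1.24 ± 0.54, unadjusted p = 0.0464 and adjusted p = 0.782 by edgeR). Among wild-type libraries only library 1 reached the filter's minimum of 10 counts, and the filter asks for 2 libraries. Kcnip1 was therefore tested only with the help of its transgenic libraries, and a genotype difference in it is partly built into the choice. Kcnip1 and Kcnmb1 overlap in the RefSeq annotation (assembly GRCr8), on opposite strands. Since strandedness is not stated, their reads cannot be told apart with certainty, and the 2 differences should not be read as independent.

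Other accessory subunits showed no common direction. Kcnip2 and Kcnip3, relatives of Kcnip1 that also bind Kcnd1-type channels, had 1.19, 1.96 and 1.46 CPM in wild-type libraries against 0.540 and 1.88 CPM in transgenic ones, and 1.99, 2.99 and 1.82 CPM and 1.93 and 1.75 CPM. The transgenic libraries of Kcnip2 lay near opposite ends of its range. Kcnab1, a beta subunit that speeds inactivation of Kcna channels, had 0.831, 1.17 and 1.23 CPM and 0.655 and 1.24 CPM. Kcne2, a single-span subunit that joins several voltage-gated channels, had 2.09, 1.22 and 0.637 CPM and 1.16 and 2.20 CPM. Neither genotype was set apart in these 4 genes.

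Kcne3 and Kcng1 stood just under the expression threshold. Kcne3, the single-span subunit that holds epithelial Kcnq1 channels open, had 0.758, 0.979 and 0.911 CPM in wild-type libraries against 1.39 and 1.24 CPM in transgenic ones (log2 fold change 0.58 ± 0.39, edgeR adjusted p = 0.860), without overlap. Kcng1, another modifier subunit, had 1.16, 0.734 and 1.05 CPM and 0.501 and 0.860 CPM. Kcnrg had 1.23, 0.979 and 0.319 CPM and 1.54 and 2.16 CPM (log2 fold change 1.12 ± 0.51, edgeR adjusted p = 0.791), with both transgenic values above the wild-type ones.

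**Figure D4:**
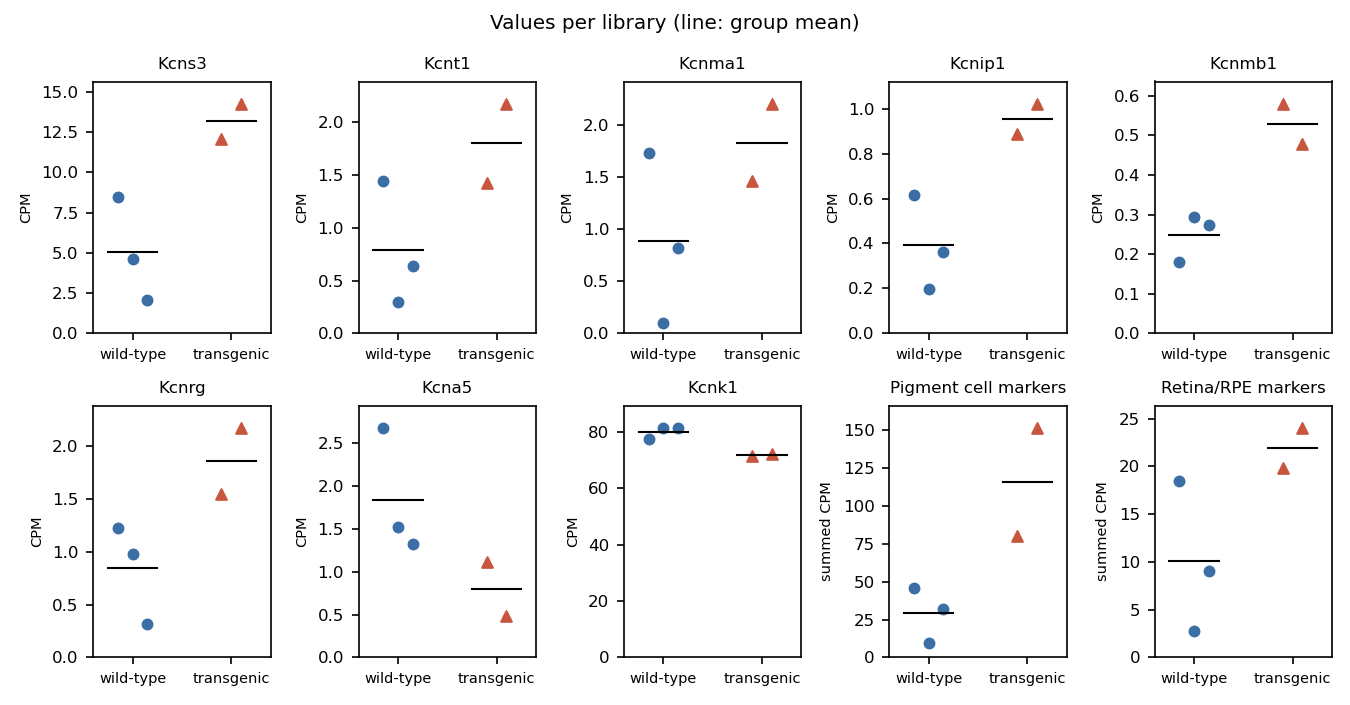
TMM-scaled CPM per library (y axes from 0) of 8 potassium channel genes, with the summed CPM of pigment-cell and retina or retinal pigment epithelium (RPE) markers in the last 2 panels; lines are group means. Wild-type points run from library 1 at the left to library 3 at the right. Library 2 is the lowest wild-type point of Kcnt1, Kcnma1, Kcnip1 and both marker sums. The lowest is library 3 in Kcns3, Kcnrg and Kcna5 and library 1 in Kcnmb1 and Kcnk1.

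Promoter sequence was examined for the binding motif of steroid receptors, since the transgene codes for one. RefSeq promoters (assembly GRCr8) matched 58 of the 85 members with 64 start sites, and the 250 bases before each start site were searched on both strands. The half-site TGTTCT was present in 17.2% of member windows, 11.8% of the 17 windows of expressed members and 17.5% of all 33469 windows. The full palindrome, AGAACA and TGTTCT with any 3 bases between, was in 0 of the 64 and in 0.0120% of all, and its relaxed form, GNACA and TGTNC with any 3 bases between, was in 1 member window (Kcna5), or 1.56%, and in 0.373% of all. Member windows had a median GC content of 59.6%, against 51.2% over all windows. A match is a description of letters and no site of binding.

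For the next counts, a gene was taken to hold a motif if any of its windows held either form. The like share over all genes was not taken, so these counts are no measure of enrichment. Of the 8 members with the smallest p, 5 had a promoter in that table, and 3 of these held a motif. Their windows are shown because they are the members of smallest p in which the receptor's motif occurs, in lower case with the matched letters in capitals, 5′ to 3′ on the gene's strand and ending at the base before the start site. The capitals mark the relaxed palindrome in Kcna5 (chr4:161043810-161044059, minus strand), the half-site in Kcnt1 (chr3:29081089-29081338, plus strand) and the half-site on the opposite strand in Kcnip1 (chr10:18940810-18941059, minus strand).
Kcna5: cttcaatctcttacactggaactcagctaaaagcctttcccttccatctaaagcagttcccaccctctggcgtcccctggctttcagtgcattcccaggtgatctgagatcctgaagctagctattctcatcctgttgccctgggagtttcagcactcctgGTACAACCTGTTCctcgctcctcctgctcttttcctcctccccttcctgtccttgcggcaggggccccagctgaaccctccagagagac
Kcnt1: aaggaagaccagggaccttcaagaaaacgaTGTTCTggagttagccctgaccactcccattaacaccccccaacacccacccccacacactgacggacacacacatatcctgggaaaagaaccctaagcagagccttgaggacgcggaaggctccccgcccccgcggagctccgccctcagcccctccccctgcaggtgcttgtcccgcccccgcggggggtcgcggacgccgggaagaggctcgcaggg
Kcnip1: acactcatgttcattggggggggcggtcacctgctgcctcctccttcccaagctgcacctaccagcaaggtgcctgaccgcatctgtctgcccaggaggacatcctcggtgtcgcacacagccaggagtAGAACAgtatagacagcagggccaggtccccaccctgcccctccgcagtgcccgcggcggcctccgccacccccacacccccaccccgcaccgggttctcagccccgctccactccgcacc
Kcna5 was lower in both transgenic libraries, Kcnip1 was higher in both, and Kcnt1 overlapped between genotypes. Kcnt1 and Kcnip1 each have another start site whose window held no match, and the windows of Kcns3 and Kcnmb1 held none either.

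The isoform table gave no called member. Of 122 isoforms named for potassium channel genes, 38 were tested and 0 were called by edgeR (0% of all 27110 isoforms tested were called), with 0 at an unadjusted p under 0.05, beside 3.98% of all isoforms. Among the 5 of smallest p were isoforms of Kcnj3, Kcnk1 and Kcna5. Those of Kcnk1 and Kcna5 held 100% of the gene's counts and repeat its values. The named isoform of Kcnj3, ENSRNOT00000007335, held 5.99%, 3.52% and 5.29% of the gene's counts in wild-type and 7.54% and 7.09% in transgenic libraries. Its level was 3.83, 2.44 and 4.60 CPM of the isoform table and 6.19 and 5.46 CPM, without overlap (log2 fold change 0.68 ± 0.34, adjusted p of 1.00 by edgeR). The rest of the Kcnj3 counts belongs to no isoform that the table names for it.

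Genes that act with potassium channels were read from 2 lists. Of channel partners such as calmodulins, sulfonylurea receptors, scaffolds and regulators, 23 of 25 genes were measured and 16 tested, of which 10 had a positive and 6 a negative log2 fold change (median 0.03) and 0 were called by edgeR. Nedd4l, a ubiquitin ligase of ion channels, was the only one at an unadjusted p under 0.05 (log2 fold change -0.27 ± 0.12, edgeR adjusted p = 0.786). Abcc9, the sulfonylurea receptor of vascular potassium channels, had 4.22, 2.94 and 2.37 CPM in wild-type libraries against 2.78 and 3.60 CPM in transgenic ones. Of potassium pumps and cotransporters, 23 of 24 were measured and 20 tested, of which 16 were positive and 4 negative (median 0.38) and 0 were called by edgeR. An unadjusted p under 0.05 was reached by 5 of the 20. Over all genes tested, 48.2% were positive and 6.32% had an unadjusted p under 0.05, and the median was -0.01.

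Those 5 included both directions. Atp1b2 and Atp1b1, beta subunits of the sodium pump, had log2 fold changes of 0.47 ± 0.12 and 0.68 ± 0.20 (edgeR adjusted p = 0.492 and 0.639), and Fxyd6, a regulator of the pump, 0.72 ± 0.30. Slc12a2, the cotransporter that brings sodium, potassium and chloride into the cell, had 457, 429 and 382 CPM in wild-type libraries against 366 and 341 CPM in transgenic ones (-0.26 ± 0.11, edgeR adjusted p = 0.775). Slc24a5, a potassium-dependent exchanger of pigment cells, had 0.794, 0.0489 and 1.18 CPM and 1.66 and 4.49 CPM. Set beside them, the channels did not share 1 direction. Among the expressed genes named here, Kcnk1 and Kcna5 were lower and Kcns3 and Kcnrg higher in both transgenic libraries. Of the 46 members tested, both transgenic libraries were the highest in 10 (21.7%, beside 12% of all genes tested). They were the lowest in 2 (4.35%, beside 10.7%). These counts are a description, since the filter passes a gene high in the transgenic libraries alone. No member passed the test.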

How the data were processed

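RNA of cornea was sequenced in 5 libraries (3 wild-type, 2 transgenic). The authors deposited expected counts, 1 table by gene and 1 by isoform. The tools listed per the submitters' processing notes, with no role or order, are RSEM 1.2.28, STAR 2.5.3a, fastp, FastQC, edgeR 3.28.0 and DESeq2 1.26.0, and the build is rn6. Expected counts of similar transcripts depend on how shared reads were divided.

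Here the values were rounded, filtered by filterByExpr (minimum count 10), scaled by TMM and tested with edgeR 4.0.16 in R 4.3.3 (quasi-likelihood F test, robust, two-sided, Benjamini-Hochberg adjustment over all features, threshold 0.05). CPM are TMM-scaled except in the expression rule. The ± after a log2 fold change is its standard error (size over the square root of F), and 95% intervals use the fit's degrees of freedom. Other fits used DESeq2 1.42.0 and limma 3.58.1. The procedure was tested on simulated counts. All 85 symbols matched RefSeq names.

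Members and lists were chosen with earlier results of these data known. Values of some members that enter the totals are not reported here. Named genes are the receptor genes, the 12 expressed members of highest mean CPM, the 8 of smallest p, the 2 on each side of the expression threshold, expressed channels with an expressed partner, and the 5 isoforms of smallest p. Kcnj5, Kcnj6, Abcc9 and the named pump genes were chosen after their values were seen.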

Additional observations from a re-analysis of the deposited data

How the results depend on the processing

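No member was called by edgeR or under any of the 12 alternatives to the gene fit. The number of expressed members, 23, became 36 at 0.5 CPM, 12 at 2 CPM and 13 when all 5 libraries had to reach 1 CPM, and 17 to 22 without 1 library. Over all genes, the 1 call became 53 with DESeq2, 0 with a filter at 1 CPM in 3 libraries, 2 with no filter, and 2 to 36 without 1 library (36 without transgenic library 1). Same-numbered libraries did not deviate together (r = -0.00 and -0.11), which gave no sign that the numbers pair them. With 2 transgenic libraries, their deviations from the group mean mirror each other, so this check cannot exclude a pairing. With the replicate block, 16 genes were called and the members' median log2 fold change was 0.23 in place of 0.13. That median was 0.11 to 0.21 without 1 library. The cause of these shifts was not tested.

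Of 355 log2 fold changes recomputed for 30 genes, 12 reversed, in 8 genes. With the replicate block Kcnk5 and Kcne2 reversed to -0.0075 and -0.011. Leaving out 1 library gave ranges of -0.023 to 0.14 for Kcnk5, -0.22 to 0.43 for Kcnk4, -0.32 to 0.070 for Kcnj14, -0.059 to 0.15 for Kcnj9, -0.38 to 0.52 for Kcna2, -0.71 to 0.21 for Kcnab1, -0.20 to 0.87 for Kcne2 and -1.49 to 0.30 for Kcnip2. None of these genes was called in either direction. With 2 transgenic libraries, leaving 1 out assumes that the remaining one varies like the wild-type group.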

Other observations

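The gene and isoform tables did not hold the same potassium channel counts. Isoforms named for a member summed to its gene count within 1 count in 55 of 85 members, and in 14 of the 23 expressed ones, beside 62.4% of the 20317 genes in both tables. In Kcns3 the named isoforms held 0% of the gene's counts in all libraries but transgenic library 1, where they held 25.7%, and in Kcna2 they held 0% in all 5. In Kcnt1 they held 100%, 0% and 0% in wild-type libraries 1 to 3 and 100% and 100% in transgenic libraries. Of 55002 isoforms, 26948 carry no gene name. Kcnj15, an inward rectifier of epithelia, appears in the isoform table only, at 11.5, 0 and 19.6 CPM of that table in wild-type libraries 1 to 3 and 17.8 and 13.2 CPM in transgenic libraries 1 and 2.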
